A study of Homo sapiens with 18 samples.

Results

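The genes NPTX1, KCNA7, SERPINI1, VWA5A, OVGP1 and C1orf162 were followed through RNA-seq of NCI-H1299 cells that had been given plasmids for the transcription factors TBX2, TBX3, TBX4 or TBX5. They were chosen from these same data because they were low in control cells and rose strongly with TBX4 or TBX5, and the rule sets no numeric threshold. The table lists 63677 genes, of which 15576 passed the filter on low counts, and all 6 were among these. The question asked here is how each of them behaved with TBX2 and TBX3. The choice used the TBX4 and TBX5 contrasts, so the values in those groups are given as a description without a test, and the TBX2 and TBX3 contrasts share their control libraries with that choice. The comparison of TBX2 with TBX3 is not named in the rule as a ground of choice. The members were chosen with earlier results of these data known, however, so its independence of the choice cannot be stated. The comparison of the empty vector with Ctl did not enter the choice as a contrast, but low levels in both of these groups were part of it.

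T-box proteins are transcription factors that bind DNA through a shared domain, the T-box, which recognises a short sequence around AGGTGT. TBX2 and TBX3 are best known as repressors, while TBX4 and TBX5 are mostly described as activators, and all of them take part in lung, limb or heart development. The genes TBX2 and TBX4 are neighbours on one human chromosome and TBX3 and TBX5 on another.

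The data comprised 18 libraries of NCI-H1299, an established human lung cancer line that lacks p53, in 6 groups of 3 replicates labelled a, b and c. The groups received a plasmid for human Flag-tagged TBX2, human HA-tagged TBX3, human Flag-tagged TBX4 or mouse HA-tagged Tbx5, or an empty vector (EV), and the treatment of the last group, labelled Ctl, is not named. Transfection was transient, so only some of the cells of a dish carried the plasmid. The TBX2 and TBX4 plasmids share one backbone and tag (pORF, Flag) and the TBX3 and Tbx5 plasmids another (pCGN, HA), so a TBX and its backbone cannot be told apart within a group, and the backbone of EV is not stated. One library of the TBX4 group, replicate c, is titled with the number of the TBX4 libraries but the name TBX5. It was kept with TBX4, and the TBX4 values are also given without it.

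Library totals ran from 7365221 to 11743179 counts, and a single gene without a symbol, ENSG00000266658, took from 10.7% (95% Wilson interval 10.689% to 10.726%) to 53.5% (53.449% to 53.521%) of a library. Its share was 30.3% to 40.2% in Ctl, 12.4% to 34.7% in EV, 19.6% to 40.5% with TBX2, 10.7% to 47.4% with TBX3, 13.2% to 18.6% with TBX4 and 22.5% to 53.5% with TBX5. EV replicate c (12.4%), TBX3 replicate c (10.7%) and TBX5 replicate a (22.5%) were the lowest of their groups, the TBX4 libraries all lay below Ctl, and the part of this share in the members' values was not tested. These intervals and the floor below cover counting error only, since no molecular identifiers are named and reads may then repeat a molecule. Levels are given as CPM, the counts scaled to a common library size with TMM, with 3 counts, equal to 0.191 to 0.595 CPM depending on the library, taken as the floor. The plasmid gene reached 4470 ± 368 CPM of TBX2, 21900 ± 3870 of TBX3, 7980 ± 483 of TBX4 and 201 ± 62.4 of human TBX5 (SD, n = 3) in its own group, where the TBX5 plasmid carries the mouse gene. Reads of TBX4 were also found at 1.88 ± 0.0868 CPM with TBX2, 0.949 ± 0.544 CPM with TBX3 and 2.09 ± 1.29 CPM with TBX5, against 0.0165 CPM in the controls, and TBX3 was at 6.70 ± 0.142 CPM with TBX4 and 10.3 ± 2.76 CPM with TBX5, against 2.28 ± 0.682 CPM. The part of these low TBX4 and TBX3 levels in the members' values was not tested. Among markers of the line's origin, KRT8, KRT18 and VIM were measured, whereas KRT19 and EPCAM had at most 3 counts in any library, and the lung adenocarcinoma markers NKX2-1, NAPSA, SFTPB and SFTPC did not pass the filter (summed level 0.343 to 1.38 CPM). The summed level of KRT8, KRT18, KRT19, EPCAM and VIM was 974 to 1070 CPM in the controls, 766 to 819 with TBX2, 823 to 865 with TBX3, 887 to 940 with TBX4 and 916 to 995 with TBX5.

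All 6 members passed the filter of more than 5 counts in at least 10 libraries, but not equally. SERPINI1 and VWA5A were over 5 counts in 18 libraries, OVGP1 in 17 and NPTX1 in 13. KCNA7 passed in exactly 10 libraries, 6 of them with TBX4 or TBX5. C1orf162 passed in 11, which were 5 with TBX4 or TBX5, 4 with TBX2 or TBX3 and 2 controls. All its TBX2 libraries, at 34, 32 and 23 counts, were among these, and without them it would have failed. Its tests with TBX2 are therefore not independent of the filter, although it was also called higher with TBX2 against the controls when the filter was dropped. The libraries of NPTX1 were 6 with TBX4 or TBX5, 4 controls and 3 with TBX2 or TBX3. NPTX1, KCNA7 and C1orf162 were thus in the table only with the help of the groups in which they were high. Outside TBX2, TBX4 and TBX5, OVGP1 exceeded 5 counts in 5 controls and 3 TBX3 libraries, which is also short of the 10 needed. No exon bases of the 6 genes overlap those of another counted gene (0.0% for each).

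The members fell into 2 patterns. NPTX1, KCNA7 and SERPINI1 were highest with TBX5 and second with TBX4, and none of them was called changed with TBX2 or TBX3. VWA5A, OVGP1 and C1orf162 were highest with TBX4 and were called higher with TBX2 as well, while with TBX3 none was called. The plot of levels by library shows both patterns.

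**Figure D1:**
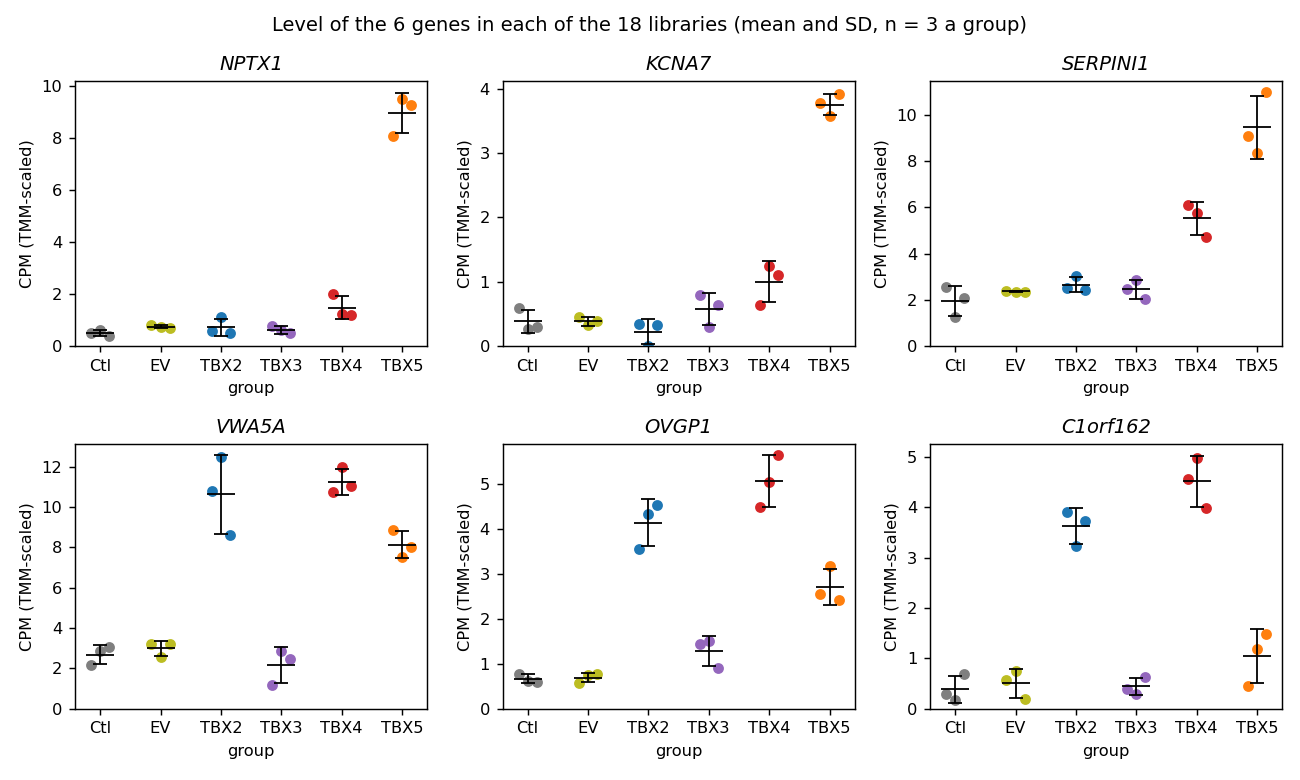
TMM-scaled CPM of each of the 6 genes (vertical axis, linear, a separate scale for each gene) in the 18 libraries by group, with points for libraries and bars for the mean and SD of 3 libraries. The upper row has its highest points with TBX5, and the lower row with TBX4 or TBX2.

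NPTX1 encodes neuronal pentraxin 1, a secreted protein known for clustering glutamate receptors at synapses, and lies on the minus strand of chromosome 17 (GRCh37, chr17:78440634-78451643). In the 6 control libraries its level ran from 0.397 CPM over a median of 0.662 to 0.8 CPM, that is 4 to 11 counts. With TBX5 the 3 libraries held 8.10, 9.52 and 9.30 CPM, and with TBX4 they held 2.00, 1.25 and 1.20 CPM. Every TBX4 library stood above every control, and every TBX5 library above every TBX4 library. The log2 fold change was 3.79 ± 0.21 (SE) with TBX5, at rank 3 of the tested genes, and 1.23 ± 0.29 with TBX4, at rank 67. The TBX2 libraries held 0.574, 1.11 and 0.487 CPM, and the TBX3 libraries 0.786, 0.603 and 0.492 CPM. Both sets overlapped the controls. In RNA of a whole dish, a higher level per cell and a larger share of expressing cells cannot be told apart, here and for the other members. Against the 6 controls the difference was 0.28 ± 0.38 (SE) with TBX2 (adjusted p = 0.648) and -0.07 ± 0.37 with TBX3 (adjusted p = 0.947), by edgeR's quasi-likelihood test with p-values adjusted over all tested genes.

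KCNA7 encodes the pore-forming subunit Kv1.7 of a voltage-gated potassium channel and lies on the minus strand of chromosome 19 (GRCh37, chr19:49570654-49575956). The controls held 0.266 to 0.588 CPM with a median of 0.352 CPM, or 3 to 6 counts. The TBX5 libraries held 3.77, 3.57 and 3.91 CPM and the TBX4 libraries 0.641, 1.25 and 1.11 CPM. Both groups lay above all controls, and TBX5 above TBX4. Its log2 fold change was 3.25 ± 0.28 (SE) with TBX5, at rank 5, and 1.35 ± 0.35 with TBX4, at rank 45. KCNA7 was the member with the lowest counts with TBX2, with 3, 0 and 2 counts (0.344, 0 and 0.325 CPM), all at or under the floor. With TBX3 it held 0.786, 0.302 and 0.633 CPM, overlapping the controls. The estimates against the controls were -0.88 ± 0.62 (SE) with TBX2 (adjusted p = 0.325) and 0.62 ± 0.42 with TBX3 (adjusted p = 0.416, edgeR's quasi-likelihood test), so neither estimate passed.

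SERPINI1 encodes neuroserpin, a secreted inhibitor of tissue plasminogen activator, and lies on the plus strand of chromosome 3 (GRCh37, chr3:167453031-167543357). The controls held 1.24 to 2.55 CPM with a median of 2.36 CPM. With TBX5 the libraries held 9.10, 8.33 and 11.0 CPM, and with TBX4 they held 6.09, 5.76 and 4.72 CPM. Both groups were apart from the controls and from each other. The log2 fold change was 2.12 ± 0.18 (SE) with TBX5, at rank 12, and 1.35 ± 0.17 with TBX4, at rank 44. With TBX2 it held 2.53, 3.02 and 2.44 CPM and with TBX3 2.49, 2.87 and 2.04 CPM. Each of these sets overlapped the controls, whose highest library stood at 2.55 CPM. The differences were 0.32 ± 0.23 (SE) with TBX2 (adjusted p = 0.339) and 0.13 ± 0.23 with TBX3 (adjusted p = 0.794, edgeR). Of the 3 genes with the TBX5-high pattern, SERPINI1 had the most counts and hence the smallest errors for TBX2 and TBX3.

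Promoter sequences from RefSeq (GRCh38.p14) were matched for 2 of the 6 members, KCNA7 and SERPINI1, and none was read for NPTX1, VWA5A, OVGP1 and C1orf162. The 250 bases before the start are shown because these genes moved together across the groups and the T-box motif can be looked for in them. The core AGGTGT and the longer AGGTGTGA, which contains it, were searched on both strands, the reverse complements being ACACCT and TCACACCT. Capitals mark AGGTGTGA.
KCNA7 (chr19:49072700-49072949, minus strand): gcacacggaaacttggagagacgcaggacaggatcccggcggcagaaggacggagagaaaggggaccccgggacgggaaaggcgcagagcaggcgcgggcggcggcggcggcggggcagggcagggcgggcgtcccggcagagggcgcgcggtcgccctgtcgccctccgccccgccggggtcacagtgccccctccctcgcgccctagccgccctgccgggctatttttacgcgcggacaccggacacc
SERPINI1 (chr3:167735471-167735720, plus strand): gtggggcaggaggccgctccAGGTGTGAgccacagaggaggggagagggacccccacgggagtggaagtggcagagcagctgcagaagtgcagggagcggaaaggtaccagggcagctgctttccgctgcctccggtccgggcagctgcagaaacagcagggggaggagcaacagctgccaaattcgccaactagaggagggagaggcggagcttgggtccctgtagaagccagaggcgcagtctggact
SERPINI1 held the longer site once, with its first base at position -230, counted back from the RefSeq start, and the KCNA7 window held neither form. That start need not be the gene start given above, which comes from the GENCODE annotation on GRCh37. Among 35116 promoter windows of the same length, 9.57% held the core and 0.786% the longer form. The match is a description of these letters and says nothing of binding. The GC content of the windows was 75.2% for KCNA7 and 64.8% for SERPINI1.

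VWA5A encodes a protein with a von Willebrand factor A domain and lies on the plus strand of chromosome 11 (GRCh37, chr11:123986111-124018428). In the controls it held 2.16 to 3.20 CPM with a median of 2.96 CPM. With TBX4 the libraries held 10.7, 12.0 and 11.0 CPM and with TBX5 8.88, 7.54 and 8.0 CPM. All 6 stood above all controls, and TBX4 above TBX5. The log2 fold change was 1.97 ± 0.13 (SE) with TBX4, at rank 9, and 1.52 ± 0.16 with TBX5, at rank 30. The TBX2 libraries held 10.8, 12.5 and 8.60 CPM, overlapping the TBX4 libraries and above all controls. The TBX3 libraries held 1.18, 2.87 and 2.46 CPM, across the range of the controls and below it. VWA5A rose with TBX2 by 1.92 ± 0.15 on the log2 scale (adjusted p = 2.62e-09, edgeR's quasi-likelihood test), which was rank 50 in that contrast. With TBX3 the estimate was -0.37 ± 0.23 (adjusted p = 0.335, edgeR).

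OVGP1 encodes oviductal glycoprotein 1, a secreted chitinase-like protein of the oviduct, and lies on the minus strand of chromosome 1 (GRCh37, chr1:111956941-111970357). The controls held 0.571 to 0.784 CPM with a median of 0.686 CPM, or 5 to 12 counts. With TBX4 it held 4.48, 5.06 and 5.65 CPM and with TBX5 2.55, 3.17 and 2.42 CPM. Neither group overlapped the controls or the other. The log2 fold change was 2.85 ± 0.20 (SE) with TBX4, at rank 6, and 1.94 ± 0.27 with TBX5, at rank 14. In the TBX2 libraries OVGP1 held 3.56, 4.33 and 4.55 CPM, of which the highest stood above the lowest TBX4 library. It rose with TBX2 by 2.56 ± 0.23 on the log2 scale (adjusted p = 1.82e-08, edgeR's quasi-likelihood test). OVGP1 was the only member whose 3 TBX3 libraries, at 1.44, 1.51 and 0.914 CPM, all exceeded the 6 controls. The estimate with TBX3 was 0.80 ± 0.31 (unadjusted p = 0.0177 and adjusted p = 0.111, edgeR's quasi-likelihood test), which did not pass. Without TBX3 replicate c, the lowest of them, the estimate was 1.08 with an adjusted p of 0.0715 in edgeR, whereas leaving out other libraries gave adjusted p-values up to 0.312.

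C1orf162 encodes a predicted membrane protein of which little is known, and lies on the plus strand of chromosome 1 (GRCh37, chr1:112016414-112021134). The controls held 0.178 to 0.751 CPM with a median of 0.433 CPM, or 2 to 7 counts. The TBX4 libraries held 4.57, 4.98 and 3.98 CPM. With TBX5 it held 0.444, 1.19 and 1.49 CPM, and replicate a, with 4 counts, stood among the controls. The log2 fold change was 3.41 ± 0.27 (SE) with TBX4, at rank 3, and 1.14 ± 0.51 with TBX5, at rank 108. C1orf162 held 3.90, 3.22 and 3.73 CPM with TBX2, just below the TBX4 libraries, and 0.393, 0.302 and 0.633 CPM with TBX3, inside the range of the controls. It rose with TBX2 by 3.08 ± 0.31 on the log2 scale (adjusted p = 1.24e-07, edgeR's quasi-likelihood test), at rank 11 of that contrast. C1orf162 passed the filter only with its TBX2 libraries, so this test is not independent of the filter. With TBX3 the estimate was 0.23 ± 0.49 (adjusted p = 0.843, edgeR).

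Without TBX4 replicate c, the library with the conflicting title, the TBX4 log2 fold changes were 1.35 for NPTX1, 1.28 for KCNA7, 1.45 for SERPINI1, 1.99 for VWA5A, 2.77 for OVGP1 and 3.49 for C1orf162. That library held 119 counts of VWA5A and 43 of C1orf162.

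**Figure D2:**
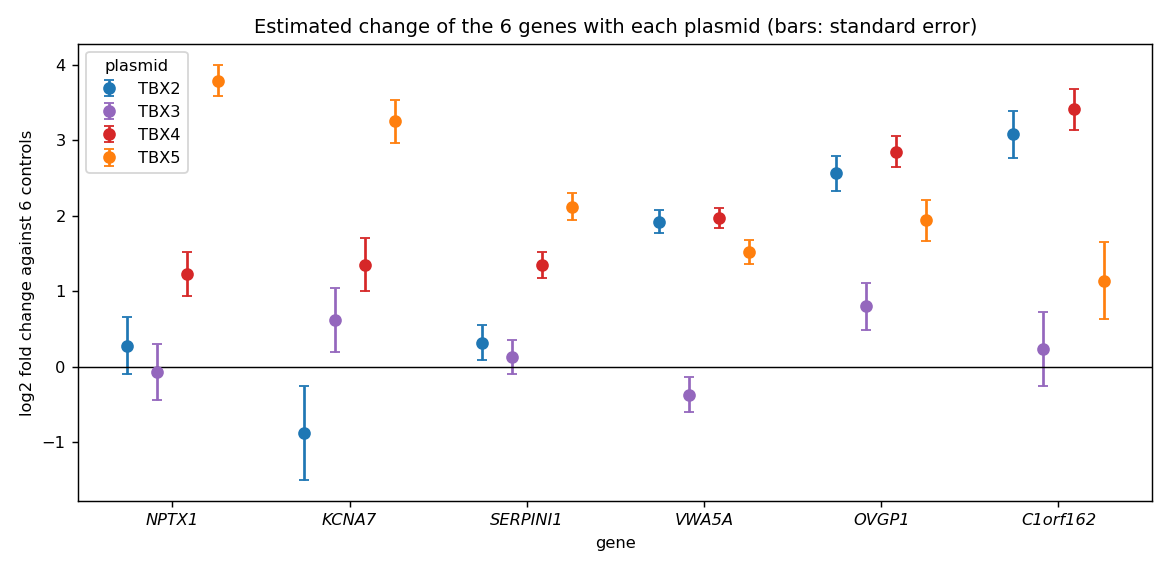
Log2 fold change against the 6 controls (vertical axis) of each gene with each plasmid, with bars for the standard error from edgeR. TBX2 points of VWA5A, OVGP1 and C1orf162 lie between 1.92 and 3.08, and those of the other members between -0.88 and 0.32.

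With TBX2, 3 of the 6 members were called higher and none lower at an adjusted p under 0.1 in edgeR, beside 17% of all tested genes called higher and 15.6% called lower. The members were chosen as low in these same controls, which favours a rise against them. Counts against the controls are therefore not independent of the choice, and the shares are set beside them as a description. With TBX2 the count is also not independent of the filter, which C1orf162 passed only with its TBX2 libraries. The 3 called members were also those whose TBX2 libraries all exceeded the 6 controls, which held for 12.9% of the tested genes. With TBX3, 0 members were called in either direction by edgeR and 1 (OVGP1) had an unadjusted p under 0.05, beside 8.47% of the tested genes called higher and 6.4% called lower. DESeq2 called 0 with TBX3 too, but a member to which it gave no adjusted p counted as not called, as NPTX1 and KCNA7 did with TBX2. One member (OVGP1) had all TBX3 libraries above the controls, as did 8.38% of the tested genes. In the contrasts that chose the members, 6 of 6 stood above the threshold with TBX4 (6.97% of the tested genes) and 5 of 6 with TBX5 (6.55%), and the same 6 and 5 had all libraries above the controls (6.84% and 7.48%), which describes the choice. The median log2 fold change of the members was 1.12 (TBX2), 0.18 (TBX3), 1.66 (TBX4) and 2.03 (TBX5), where the medians over all tested genes lay within 0.006 of 0. A missed threshold does not show that a member stayed level, and the standard errors of the 6 TBX3 estimates ran from 0.23 to 0.49.

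TBX2 and TBX3 were then compared directly, in a fit of all 18 libraries that does not use the controls in the contrast. In this test 3 members were called higher with TBX2 than with TBX3 and 0 lower, beside 8.01% and 7.51% of the tested genes. Earlier results of these data were known at the choice, and C1orf162 needed its TBX2 libraries to pass the filter. The count is therefore not independent of choice and filter, and the shares are set beside it as a description. VWA5A differed by 2.29 ± 0.20 (SE) on the log2 scale, from 10.6 ± 1.94 CPM (SD, n = 3) with TBX2 against 2.17 ± 0.881 CPM with TBX3 (adjusted p = 2.36e-09, edgeR's quasi-likelihood test). OVGP1 differed by 1.77 ± 0.24, from 4.14 ± 0.518 against 1.29 ± 0.326 CPM (adjusted p = 1.17e-05, edgeR). C1orf162 differed by 2.84 ± 0.38, from 3.62 ± 0.356 against 0.443 ± 0.171 CPM (adjusted p = 6.18e-06, edgeR). In each of the 3 genes the TBX2 libraries all exceeded the TBX3 libraries, which held for 12.9% of the tested genes. KCNA7 had the opposite sign, -1.50 ± 0.64, on 3, 0 and 2 counts with TBX2 (unadjusted p = 0.0271, adjusted p = 0.142, edgeR). NPTX1 (0.34 ± 0.44, adjusted p = 0.704 in edgeR) and SERPINI1 (0.19 ± 0.25, adjusted p = 0.707) did not differ beyond their errors. The plot of TBX2 against TBX3 places these values among all tested genes.

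**Figure D3:**
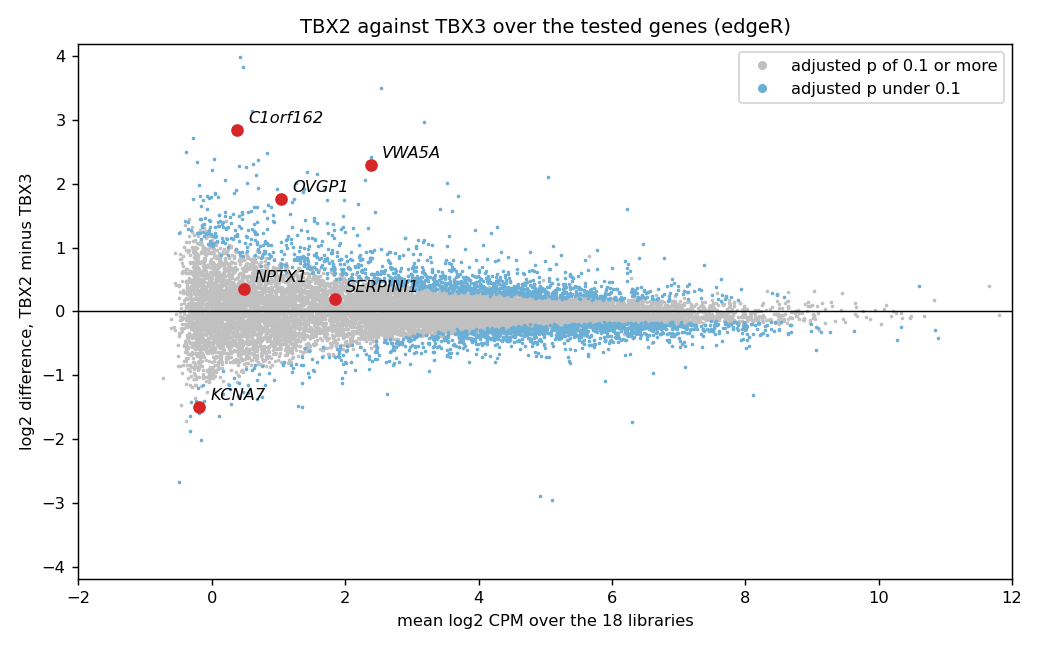
Log2 difference TBX2 minus TBX3 (vertical axis) against the mean log2 CPM over the 18 libraries (horizontal axis) for the tested genes except TBX2 and TBX3, with the 6 members in red. C1orf162, VWA5A and OVGP1 lie at 2.84, 2.29 and 1.77, NPTX1 and SERPINI1 near 0, and KCNA7 at -1.50 at the low end of the levels.

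The EV libraries were compared with Ctl, a comparison limited by the unnamed treatment of Ctl and the unstated backbone of EV. Low levels in these same libraries were part of the choice of the members, so the outcome is not independent of it. In edgeR, 0 of 6 were called and 0 had an unadjusted p under 0.05, beside 0.385% of the tested genes called in either direction. DESeq2 called 0 too, where a member to which it gave no adjusted p counted as not called. The estimates EV minus Ctl ran from 0.02 for KCNA7 to 0.54 ± 0.42 (SE) for NPTX1, whose adjusted p of 0.747 in edgeR was the lowest of the members. The 3 EV libraries of NPTX1, at 0.702 to 0.8 CPM, were all above the 3 Ctl libraries, at 0.397 to 0.621 CPM, as was the case for 7.68% of the tested genes.

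Placed in order of their group means, the members differed in where the gaps lay. For NPTX1 the order was TBX5 (8.98 CPM), TBX4 (1.48 CPM) and then EV, TBX2, TBX3 and Ctl (0.751 to 0.503 CPM), and the last 4 overlapped from one neighbour to the next. For KCNA7 the only gap between neighbours was that between TBX5 (3.75 CPM) and TBX4 (0.999 CPM), with TBX4 overlapping TBX3 (0.574 CPM) below it. SERPINI1 showed gaps below TBX5 (9.47 CPM) and below TBX4 (5.52 CPM), and the other groups, at 1.96 to 2.66 CPM, were not separated. In VWA5A the gap lay below TBX5, since TBX4 (11.2 CPM), TBX2 (10.6 CPM) and TBX5 (8.14 CPM) overlapped from neighbour to neighbour and EV, Ctl and TBX3 (2.99 to 2.17 CPM) followed. OVGP1 was graded, with TBX4 (5.06 CPM) and TBX2 (4.14 CPM) overlapping, then TBX5 (2.72 CPM), TBX3 (1.29 CPM) and both controls (0.696 and 0.667 CPM), each step without overlap. C1orf162 stepped down from TBX4 (4.51 CPM) to TBX2 (3.62 CPM) to TBX5 (1.04 CPM), and TBX5 overlapped EV (0.505 CPM) and those after it.

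The TBX4 and TBX5 groups, given as a description, ordered the members in opposite ways. TBX4 minus TBX5 was -2.56 ± 0.21 (SE, log2) for NPTX1, -1.90 ± 0.30 for KCNA7 and -0.76 ± 0.16 for SERPINI1, and it was 0.45 ± 0.16 for VWA5A, 0.91 ± 0.21 for OVGP1 and 2.26 ± 0.34 for C1orf162. Between TBX2 and TBX4, which share a backbone, the 3 genes VWA5A, OVGP1 and C1orf162 differed by -0.05 ± 0.14, -0.29 ± 0.18 and -0.33 ± 0.23. NPTX1, KCNA7 and SERPINI1 were lower with TBX2 than with TBX4 by larger amounts, at -0.96 ± 0.34, -2.23 ± 0.55 and -1.04 ± 0.20.

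The same grouping appeared in the correlations of log2 CPM over the 18 libraries, which share the groups and are given as a description. Pearson's r was 0.829 to 0.908 among NPTX1, KCNA7 and SERPINI1 and 0.833 to 0.864 among VWA5A, OVGP1 and C1orf162, against 0.0276 to 0.609 between the sets. By rank the sets were barely apart. Spearman's rho was 0.672 to 0.765 in the first set and 0.75 to 0.767 in the second. Between the sets it was 0.17 to 0.664, highest for SERPINI1 with OVGP1. Outside the members, the gene most like NPTX1 was CTSB, a lysosomal protease (r = 0.951, rho = 0.635), whose mean was 55.6 CPM in the controls and 91.3 CPM with TBX5. KCNA7 was most like UVSSA, a factor of transcription-coupled DNA repair (r = 0.935, rho = 0.787), and then ELOVL2, a fatty acid elongase (r = 0.922, rho = 0.777). SERPINI1 was closest to ADAM19, a membrane metalloprotease (r = 0.908, rho = 0.880), which rose stepwise from 11.8 CPM in the controls to 18.1 CPM with TBX4 and 23.2 CPM with TBX5. VWA5A followed the zinc finger gene ZNF214 (r = 0.929, rho = 0.825), at 1.43 CPM in the controls, 2.62 CPM with TBX2, 1.17 CPM with TBX3 and 3.12 CPM with TBX4. OVGP1 followed DNAI7, an axonemal dynein gene (r = 0.922, rho = 0.889), at 0.361 CPM in the controls, 2.19 CPM with TBX2 and 0.627 CPM with TBX3. C1orf162 was most like the non-coding RNA NUDT19-DT (r = 0.924, rho = 0.891) and the kinase gene DYRK4 (r = 0.922, rho = 0.872), and DYRK4 was among the 3 nearest genes of VWA5A too (r = 0.924, rho = 0.860).

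Among the genes most raised by TBX4 that are not members stood the histone pseudogene H3C9P (log2 fold change 4.48, rank 2), the AP-1 gene FOSB (3.33, rank 4) and TEX14 (3.14, rank 5), around C1orf162 at rank 3 and OVGP1 at rank 6. In the TBX5 contrast, which TBX4 itself led (rank 1), H3C9P (4.46, rank 2), the BMP antagonist NOG (3.34, rank 4) and FOSB (2.84, rank 6) stood around NPTX1 and KCNA7. FOSB was also among the 3 genes most like OVGP1 (r = 0.914, rho = 0.901), with 0.84 CPM in the controls, 9.69 CPM with TBX2, 3.83 CPM with TBX3, 8.61 CPM with TBX4 and 6.39 CPM with TBX5. H3C9P is a pseudogene of a multigene family, and its reads could come from near-identical histone genes.

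VWA5A on chromosome 11, OVGP1 and C1orf162 all had TBX4 highest and TBX2 second, and these groups overlapped for VWA5A and OVGP1. OVGP1 and C1orf162 lie 46.1 kb apart on chromosome 1. The 2 protein-coding genes between them, WDR77, which encodes a partner of the methyltransferase PRMT5, and ATP5PB, a subunit of the mitochondrial ATP synthase, were not called against the controls with any TBX. WDR77 averaged 18.8 ± 1.85 CPM over the 6 controls (SD), 20.1 ± 2.24 CPM with TBX2 and 19.9 ± 2.94 CPM with TBX4. Its log2 differences from the controls ran from -0.12 with TBX3 to 0.11 with TBX2. The estimates of ATP5PB ran from -0.14 (TBX3) to 0.12 (TBX4). Between TBX2 and TBX3, ATP5PB was called higher with TBX2 by 0.19 ± 0.07 (adjusted p = 0.0912, edgeR), the direction of OVGP1 and C1orf162 at a smaller size, and WDR77 was not called (0.23 ± 0.11, adjusted p = 0.188). The ATP5PB call was lost in 6 of 8 other changes of the processing, among them DESeq2 (adjusted p = 0.12). It was also lost without EV replicate a (log2 difference 0.19) or b (0.19), TBX2 replicate a (0.20) or b (0.12), TBX3 replicate a (0.17) or b (0.15), or TBX4 replicate c (0.19). The genes flanking the pair, PIFO and TMIGD3, had at most 5 and 4 counts and were not tested.

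SERPINI1 lies head to head with PDCD10, a gene of the cerebral cavernous malformation complex, with 0.3 kb between them. PDCD10 held 39.4 ± 1.83 CPM (SD, n = 6) in the controls and 36.7 ± 3.07 CPM with TBX5, and its log2 differences, -0.14 to -0.01, did not pass with any TBX. None of its promoter windows in the table held the core motif. For NPTX1 (ENDOV and RPTOR) and VWA5A (OR10D3) the tested neighbours were not called either. Beside KCNA7, SNRNP70, a splicing factor gene, was lower with TBX2 (-0.42 ± 0.09, adjusted p = 0.000837, edgeR) and with TBX5 (-0.27 ± 0.10, adjusted p = 0.0899). This direction was opposite to that of KCNA7 with TBX5 and the same as the KCNA7 estimate with TBX2 (-0.88 ± 0.62), which was not called. The TBX5 libraries of SNRNP70 overlapped the controls, and its TBX2 call was lost with scaling by library totals (-0.4). NTF4, a neurotrophin gene 2.32 kb from KCNA7 on the same strand, did not pass the filter and was not tested. It had at most 4 counts in a control and at most 2 with TBX2 or TBX3, and held 0.561, 1.25 and 0.648 CPM with TBX4 and 1.55, 1.19 and 1.86 CPM with TBX5. All of these lay above the controls, the highest of which was at 0.457 CPM. GOLIM4, on the far side of SERPINI1, was lower with TBX2 (-0.39 ± 0.11, adjusted p = 0.00901, edgeR), a call lost with scaling by library totals (-0.38).

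**Figure D4:**
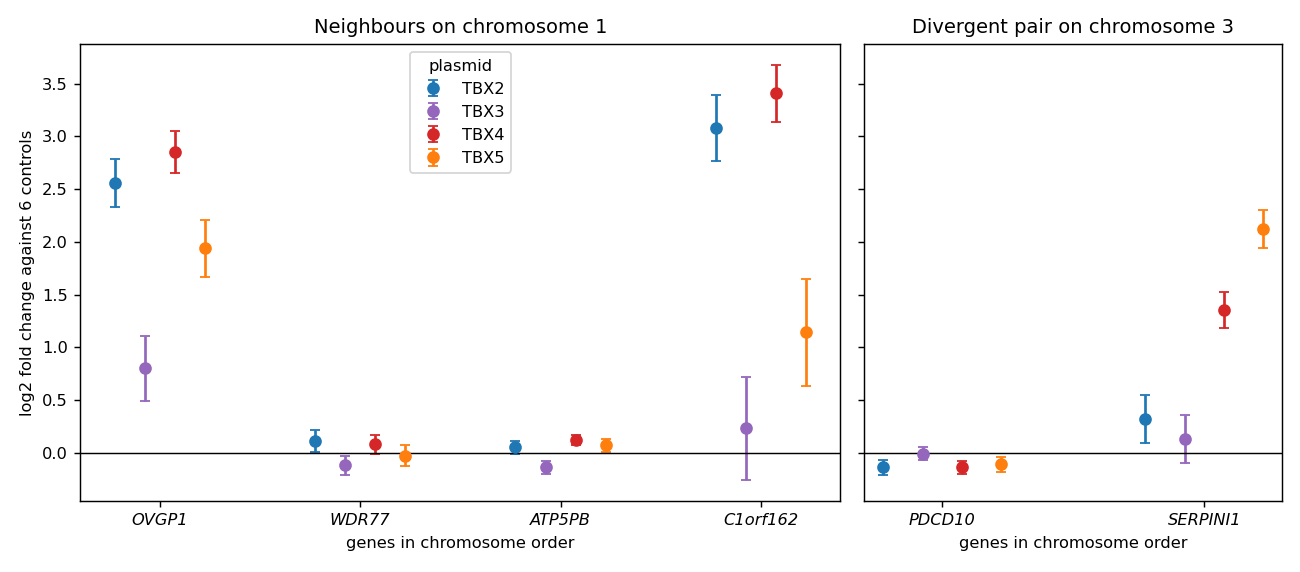
Log2 fold change against the 6 controls (vertical axis, bars for the standard error from edgeR) with each plasmid for the genes in order along chromosome 1 from OVGP1 to C1orf162 (left) and for the divergent pair PDCD10 and SERPINI1 (right). WDR77, ATP5PB and PDCD10 stay within 0.14 of 0, between members that reach 3.41 and 2.12.

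Few relatives of the members had enough counts to be tested. Calls of these lists with TBX4 and TBX5 were not recomputed without single libraries. Of 5 other pentraxins, only PTX3 was tested, and it fell with TBX5 (-0.57 ± 0.21, adjusted p = 0.0943, edgeR), where NPTX1 was highest. Of 10 other genes of Kv1 channels, 4 were tested. KCNAB3, a cytoplasmic beta subunit of these channels, was called higher by edgeR with all 4 TBX plasmids, by 0.51 (TBX2), 0.62 (TBX3), 0.78 (TBX4) and 0.91 (TBX5), and KCNA6, KCNAB1 and KCNAB2 were called with none. The call with TBX2 was lost without Ctl replicate b (0.49), EV replicate b (0.47) or c (0.50), or TBX2 replicate a (0.52) or b (0.40), and that with TBX3 without TBX3 replicate c (0.58). With DESeq2 the TBX2 value was 0.50 and not called, and the call was also lost with no filter (0.47), with library totals (0.52), against Ctl alone (0.41) and at a threshold of 0.05, while that with TBX3 was also lost with library totals (0.54) and against Ctl alone (0.51). Of 8 other VIT and von Willebrand A genes, PARP4 alone was tested (-0.22 with TBX2, adjusted p = 0.0184, edgeR). In the chitinase family 2 of 6 relatives of OVGP1 were tested, and CHID1 was called lower with TBX3 (-0.41, adjusted p = 0.0376, edgeR), a call lost without TBX3 replicate a (-0.37) or b (-0.35). The median log2 fold changes of these lists with TBX2 were -0.16, -0.11, -0.22 and 0.12, beside -0.001 over all tested genes.

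In the plasminogen system, which neuroserpin inhibits, 5 of 8 other genes were tested. With TBX2 1 was called higher and 3 lower, with a median of -0.24, and with TBX3 1 higher and 2 lower, with a median of -0.26. Of all tested genes, 17% and 15.6% were called higher and lower with TBX2 and 8.47% and 6.4% with TBX3, and their medians were -0.001 and -0.002. SERPINE2, another inhibitor of plasminogen activators, was called higher with TBX2 (0.88 ± 0.17, adjusted p = 0.000434, edgeR) and with TBX5 (1.04 ± 0.18, adjusted p = 0.000916). PLAT, tissue plasminogen activator, the enzyme that neuroserpin binds, was lower with TBX2 (-0.70 ± 0.16, adjusted p = 0.00277, edgeR) and TBX5 (-0.77 ± 0.18, adjusted p = 0.00823). PLAUR, the urokinase receptor, was lower with TBX2 (-0.37 ± 0.08, adjusted p = 0.00114, edgeR), while EV exceeded Ctl by 0.26 ± 0.06 (adjusted p = 0.0871), a difference called without Ctl replicate c (0.28) and lost without any other of the 6 libraries (0.23 to 0.28). PLAU, urokinase, was lower with TBX3 (-0.46 ± 0.07, adjusted p = 0.000242). Single libraries decided several of these calls. PLAU lost its call with TBX2 without TBX2 replicate c (-0.17), PLAUR with TBX3 without TBX3 replicate b (-0.23) or c (-0.23), and SERPINE2 with TBX3 without TBX3 replicate a (0.44) or c (0.46). In the TBX4 contrast SERPINE2 was higher (0.50), and no other gene of the list was called.

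Of 12 genes known as T-box targets in heart, lung or tumour cells, 4 passed the filter. CDKN1A, the cell cycle inhibitor p21, was called higher with TBX2 (0.39 ± 0.13, adjusted p = 0.025, edgeR), TBX4 (0.50 ± 0.12) and TBX5 (0.82 ± 0.14), but EV exceeded Ctl as well (0.53 ± 0.10, adjusted p = 0.0171, lost without EV replicate a, at 0.51), and against EV alone the TBX2 value was 0.16 and not called. ID2, an inhibitor of helix-loop-helix factors, was called higher with TBX5 (0.91 ± 0.20), while EV was below Ctl (-0.78 ± 0.17, adjusted p = 0.0708, edgeR). That difference of the controls passed without Ctl replicate c (-0.78) and was not called without any other of the 6 libraries (-0.69 to -0.86) or with DESeq2 (-0.79). HEY2, a target of the Notch pathway, was called higher with TBX2 (1.07 ± 0.35), a call lost without TBX2 replicate c (0.80). The TBX3 contrast called 0 of the 4 in edgeR, with 0.313 as the lowest adjusted p.

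NPTX1 and SERPINI1 are best known from neurons, so 10 neuronal markers were read beside them. Of these, 3 (SNAP25, SYT1 and TUBB3) were tested, ELAVL4 had no counts in any library, and STMN2 and DCX had at most 3. Their summed level was 15.4 to 19.3 CPM in the controls, 25.8 to 28.2 CPM with TBX2, 15.7 to 18.7 CPM with TBX3, 20.1 to 21.9 CPM with TBX4 and 18.1 to 23.4 CPM with TBX5. It was highest with TBX2, where NPTX1 and SERPINI1 were not called and VWA5A, OVGP1 and C1orf162 rose, and SYT1, a vesicle calcium sensor, rose there by 1.04 ± 0.12 on the log2 scale (adjusted p = 7.09e-07, edgeR). SYT1 was also called with TBX4 (0.44 ± 0.12) and TBX5 (0.49 ± 0.14), and SNAP25 with TBX2 (0.41 ± 0.14), a call lost without TBX2 replicate c (0.37). In TBX2 against TBX3, where VWA5A, OVGP1 and C1orf162 were higher, all 3 tested markers were called higher, beside 8.01% of all tested genes. The differences were 0.81 ± 0.15 for SYT1 (adjusted p = 0.000383, edgeR), 0.69 ± 0.26 for TUBB3 (adjusted p = 0.0876) and 0.43 ± 0.16 for SNAP25 (adjusted p = 0.0875). TUBB3 was lower with TBX3 than in the controls (-0.65 ± 0.20, adjusted p = 0.0358, edgeR), a call lost without TBX3 replicate a (-0.48), and was at 0.04 ± 0.20 with TBX2. The TBX2 against TBX3 call of SNAP25 was lost without TBX2 replicate a (0.46), b (0.47) or c (0.39) or TBX3 replicate a (0.43), b (0.47) or c (0.40), and that of TUBB3 without TBX2 replicate a (0.49) or b (0.58) or TBX3 replicate a (0.52), b (0.77) or c (0.82). Of 8 other changes of the processing, SNAP25 lost its TBX2 against TBX3 call in 5, TUBB3 in 6 and SYT1 in 1. Leukocyte markers summed to 0.571 to 3.32 CPM over the 18 libraries, with SPI1 at no counts. The part of these levels, and of the lower summed level of KRT8, KRT18 and VIM with TBX2 and TBX3, in the members' values was not tested.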

How the data were processed

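RNA-seq was performed on 18 libraries of NCI-H1299 cells. Paired-end reads were mapped by the authors on GRCh37 (STAR 2.3.0) and assigned to genes by featureCounts with its defaults, which ignore strand, and raw counts were deposited. A gene and its antisense partner can therefore not be told apart. Groups and replicate letters came from the sample titles. The 15576 genes that exceeded 5 counts in 10 or more of 18 libraries were tested with edgeR 4.0.16 (TMM, quasi-likelihood test, Benjamini-Hochberg over all tested genes, threshold 0.1) in R 4.3.3. Each TBX was compared with the 6 pooled EV and Ctl libraries in its own fit, EV with Ctl in a fit of these 6, and TBX2 with TBX3 in 1 fit of all 18 libraries. Standard errors were obtained by dividing the size of the log2 fold change by the root of its F statistic. CPM is counts over the TMM-scaled library size of the tested genes. Symbols came from the GENCODE annotation on GRCh37, and promoter sequences from RefSeq (GRCh38.p14). The script was tested on simulated data.

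The members and gene lists were chosen with earlier results of these data known. The genes named are the 6 members, the 4 TBX genes, the 3 genes with the highest Pearson correlation to each member (log2 CPM with a prior count of 2), the 5 genes with the highest log2 fold change with TBX4 and with TBX5, the neighbouring protein-coding genes, and the called genes of the lists, of which the report gives a part. Some genes of these lists are not reported here. No label says that replicates were separate cultures, so p-values measure only the spread between these libraries. The alternatives were DESeq2 1.42.0, its size factors, scaling by totals, dropping the filter, a minimum of 10 counts in all libraries, EV or Ctl alone as controls, 1 fit of all 18 libraries, the TBX2 and TBX3 libraries alone, a prior count of 1, an adjusted p under 0.05, the replicate letter as a block, and each library left out in turn.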

Additional observations from a re-analysis of the deposited data

Results flagged for a closer look

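SERPINI1 in Ctl replicate b stood apart from the other controls. It held 1.24 CPM (14 counts), below 2.08 to 2.55 CPM in the other 5 control libraries, and its gap to the nearest of them was 0.643 of the whole range. Chance sets apart about 1 group of this size in 20, and 6 members were looked at in the controls.

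For 3 members the TBX2 effect exceeded the TBX3 effect in the direct test with edgeR. The difference TBX2 minus TBX3 on the log2 scale was 2.29 for VWA5A (adjusted p = 2.36e-09), 1.77 for OVGP1 (adjusted p = 1.17e-05) and 2.84 for C1orf162 (adjusted p = 6.18e-06), and in each gene 3 of 3 TBX2 libraries lay above the TBX3 libraries. C1orf162 passed the filter only with its TBX2 libraries, so its test is not independent of the filter. The TBX2 and TBX3 plasmids also differ in backbone and tag, which cannot be told apart from the gene they carry.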

How the results depend on the processing

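Counts of 3 members called with TBX2 against the controls, 3 in TBX2 against TBX3 and 0 in EV against Ctl came out under every alternative run. DESeq2 gave NPTX1 and KCNA7 no adjusted p with TBX2, and members without one counted as not called. With TBX3 the count was 0 except without TBX3 replicate c (range 0 to 1, OVGP1). The filter of at least 10 counts in every library gave no count of members, since SERPINI1 alone passed it. Scaling by library totals shifted the median of all genes by 0.25 with TBX4, -0.31 with TBX5, 0.20 in EV against Ctl, -0.08 with TBX3 and 0.01 with TBX2. It moved the TBX4 log2 fold change of VWA5A to 2.23 and of OVGP1 to 3.10, and the TBX5 values to 3.47 (NPTX1), 2.94 (KCNA7), 1.80 (SERPINI1), 1.22 (VWA5A) and 1.63 (OVGP1). Over all genes it called 833 higher and 220 lower with TBX2, 35 and 0 with TBX3, 154 and 10 in TBX2 against TBX3 and 16 and 1 in EV against Ctl, beside 2651 and 2428, 1319 and 997, 1248 and 1169, and 44 and 16 with TMM. With a prior count of 1, KCNA7 with TBX5 was 2.98. NPTX1 with TBX5 was 3.55 against EV alone and 4.09 against Ctl alone. Estimates that were not called changed sign for SERPINI1 with TBX3 against EV alone (-0.01) and NPTX1 with TBX3 against Ctl alone (0.23). Leaving out a library gave ranges across 0 of -0.22 to 0.45 (NPTX1, TBX2), -0.24 to 0.15 (NPTX1, TBX3), -0.24 to 0.43 (C1orf162, TBX3), -0.15 to 0.52 (NPTX1, TBX2 minus TBX3), and, in EV minus Ctl, -0.20 to 0.44 (KCNA7), -0.20 to 0.91 (C1orf162) and -0.01 to 0.22 (OVGP1). The cause was not tested.

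The letters a, b and c gave no pairing of the libraries. Deviations of same-letter libraries from their group means correlated by 0.00043 on average (-0.101 to 0.16), with 2 of 45 pairs over 0.1, beside -0.000185 for different letters. With the letter as a replicate block, 3 members were called with TBX2 (VWA5A 1.91, OVGP1 2.57, C1orf162 3.08), 3 in TBX2 against TBX3, 0 with TBX3 and 0 in EV against Ctl. Depth limits KCNA7 and C1orf162 most, with 2 to 7 counts in the controls.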
